A study of Mus musculus with 5 samples.

Results

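T cells, natural killer (NK) cells and innate lymphoid cells were taken from single-cell RNA counts of dissociated whole lungs of 5 mouse embryos at E18.5, shortly before birth. A barcode was counted as such a cell when it had at least 500 genes, at most 15% mitochondrial counts, a count of the pan-leukocyte gene Ptprc and counts of at least 2 of the 8 genes Cd3e, Cd3g, Gata3, Il7r, Nkg7, Klrd1, Ncr1 and Il2rb. It also had to lack any count of Cd79a, C1qa, Ms4a2, Cpa3, Epcam, Cdh5 and Pdgfra, which mark B cells, macrophages, basophils, mast cells, epithelium, endothelium and fibroblasts. The cells were thus selected on measured counts of these genes, and their values for them are a description. This gate held 120 of the 19491 barcodes that passed the first 2 conditions, here called kept barcodes. Counts are unique molecular identifiers (UMIs), each standing for 1 captured transcript.

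T cells carry a receptor made of variable chains and a fixed CD3 complex. In the fetus, waves of gamma-delta T cells leave the thymus ahead of most alpha-beta T cells and settle in barrier tissues such as the lung. NK cells kill target cells with perforin and granzymes and recognise them with inhibitory and activating receptors. Innate lymphoid cells have no antigen receptor: group 2 cells (ILC2) depend on Gata3 and respond to the alarmin interleukin-33, while group 3 cells and lymphoid tissue inducer (LTi) cells release interleukin-22 and lymphotoxins.

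Per the labels, 2 embryos were heterozygous (Zswim8+/-, libraries Het1 and Het2) and 3 were homozygous knockouts (Zswim8-/-, libraries KO1, KO2 and KO3), each library from a single embryo and no other treatment or allele named. Zswim8 is the adaptor through which a cullin ubiquitin ligase destroys Argonaute proteins bound to trigger transcripts, which frees their microRNAs for degradation. By Y-linked and Xist counts, Het1, Het2 and KO3 were male and KO1 and KO2 female, so sex and genotype are partly confounded. The labels state neither the allele nor the transcript that it leaves, and directions given here rest on the labels alone, so the libraries are called KO-labelled. Values of the libraries are given in the order Het1, Het2, then KO1, KO2, KO3.

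The gated cells numbered 34 in Het1, 39 in Het2, 7 in KO1, 18 in KO2 and 22 in KO3, and their summed UMIs ran from 80628 in KO1 to 366927 in Het2. The median depth per gated cell was 6533 and 7782 UMIs in the Het libraries against 11648, 8939 and 11421.5 UMIs in the others, so the cells of the KO-labelled libraries were the deeper ones. No gated barcode occurred in 2 libraries, although any 2 libraries shared 17 to 44 barcodes over all those deposited. Zswim8 itself was read too thinly in these cells for a test, with 8 and 7 UMIs in the Het libraries against 1, 2 and 3 UMIs. Per total UMIs of the cells, as unscaled counts per 1000000 (CPM), that is 24.7 and 19.1 against 12.4, 11.1 and 10.8. No overlap was seen, but 8 of the 21 UMIs lay in cells described next as led by another cell type's genes.

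The gate was checked against markers of other cell types. In 99 of the 120 cells, the UMIs of the lymphoid markers (the gate genes and 3 lists of T, NK and ILC2 genes) were at least as many as those of any list of macrophage and monocyte, neutrophil, B cell, basophil and mast, dendritic, endothelial or mesenchymal genes. In the other 21 cells 1 such list exceeded them: 12 cells were led by dendritic genes such as H2-Aa and Cd74, 7 by macrophage and monocyte genes, 1 by neutrophil genes and 1 by mesenchymal genes. By this measure these 21 cells go against the label, though some of them did carry lymphoid genes. The neutrophil-led cell of Het2 had 278 lymphoid marker UMIs with 225 of Gzma, and was marked as a doublet. A macrophage-led cell of Het2 had 2 UMIs of Cd3e and 17 of Il7r. The cells with lymphoid lead had a median of 71 lymphoid marker UMIs, and the 21 others a median of 7. They numbered 5 in Het1, 8 in Het2, 2 in KO1, 2 in KO2 and 4 in KO3. Results below are therefore also given without them. The erythroid and epithelial lists were not part of this comparison. Epithelial UMIs exceeded the lymphoid ones in 0 of the 99 cells, and erythroid UMIs, mostly haemoglobin, did so in 20 (7 and 7 against 1, 4 and 1), with over 1000 erythroid UMIs in 5 of them.

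**Figure D1:**
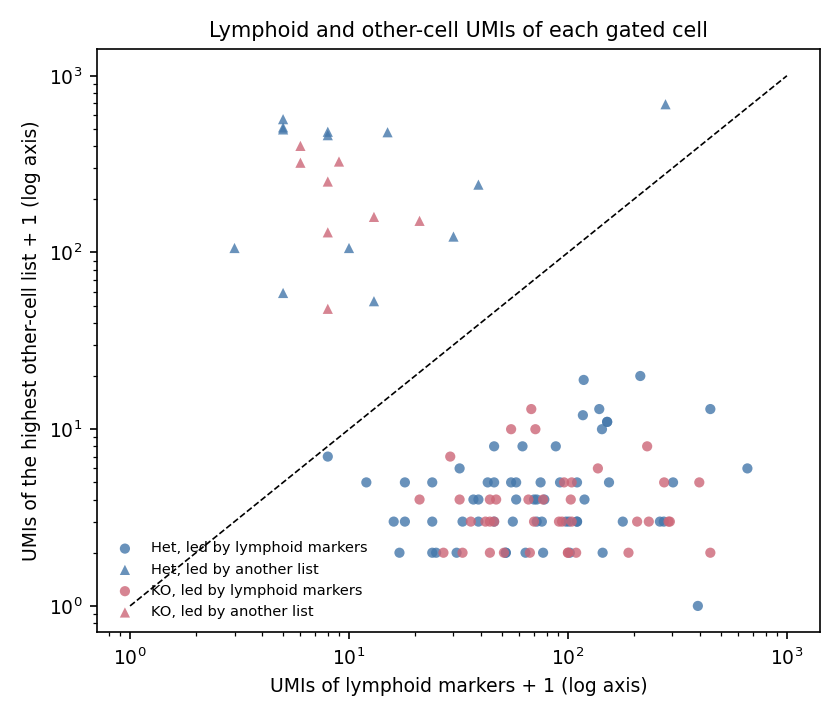
Each point is 1 gated cell, with its UMIs of lymphoid markers on the x axis and of the highest other-cell list on the y axis, both plus 1 and on log axes; colour gives the group and triangles mark the 21 cells above the dashed line of equality. The 99 cells below or on the line form 1 cloud, and the triangles have a median of 7 lymphoid marker UMIs against 71 in that cloud, with a few inside its range and 1 at 278.

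In all 120 gated cells, the B cell genes Ms4a1, Pax5 and Vpreb3 and 3 of 8 basophil and mast genes (Mcpt8, Fcer1a and Prss34) had 0 UMIs. Among non-immune barcodes, defined as those without Ptprc and with Epcam, Cdh5 or Pdgfra, 2 or more of the 8 gate genes were found in 0 of 1706, 0 of 1353, 0 of 1232, 0 of 1004 and 3 of 1353 in Het1, Het2, KO1, KO2 and KO3. The share in KO3 was 0.222%. A count of 0 is taken here to allow up to 3 counts, which gives limits of 0.176% to 0.299%. The upper ends of the 95% exact binomial intervals for these counts of 0 were 0.216% to 0.367%. Non-immune barcodes lack Ptprc, so they do not show how often other leukocytes pass the gate. Among kept barcodes with Ptprc, 56, 51, 9, 29 and 42 had 2 or more gate genes. Of these, 22, 12, 2, 11 and 20 had a count of an exclusion gene and were removed. The median depths of the non-immune barcodes were 10371.5 to 13393 UMIs, above those of the gated cells in 4 of the 5 libraries. Just inside the threshold, 24 gated cells had exactly 2 gate genes. Just outside it were 327 barcodes with 1 gate gene, of which 326 were led by another cell type's list.

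The share of T, NK and innate lymphoid cells among kept barcodes was lower in every KO-labelled library than in either Het library. It was 0.705% in Het1 (95% exact binomial interval 0.489 to 0.984) and 0.928% in Het2 (0.660 to 1.27). It was 0.224% in KO1 (0.0900 to 0.460), 0.542% in KO2 (0.321 to 0.854) and 0.548% in KO3 (0.344 to 0.829). These intervals cover counting error only. The group means were 0.817% ± 0.157 (SD, n = 2) and 0.438% ± 0.185 (SD, n = 3), a ratio of 1.87 of Het over KO-labelled. The two-sided exact permutation test gave p = 0.1, the smallest that 2 libraries against 3 allow, so the difference does not pass a threshold of 0.05. The intervals of both Het libraries overlapped those of KO2 and KO3. Fewer such cells in the lung and fewer recovered from it cannot be told apart.

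The order of the groups was the same without the 21 cells led by another list, at 0.602% and 0.737% against 0.160%, 0.481% and 0.448% (exact permutation p = 0.1). Leaving out also the 20 cells with more erythroid than lymphoid marker UMIs, the shares were 0.456% and 0.571% against 0.128%, 0.361% and 0.424%, a ratio of 1.69 with no overlap (exact permutation p = 0.2). Of barcodes with a Ptprc UMI, the gated cells were 1.43% and 1.69% against 0.669%, 1.04% and 1.09%, again with no overlap. With every cell thinned to 2000 UMIs the shares were 0.545% and 0.556% against 0.111%, 0.224% and 0.396%, a ratio of 2.26 (exact permutation p = 0.2). KO1, with 7 cells, was the lowest under each of these. Without KO1 the ratio was 1.5 and the remaining groups did not overlap.

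**Figure D2:**
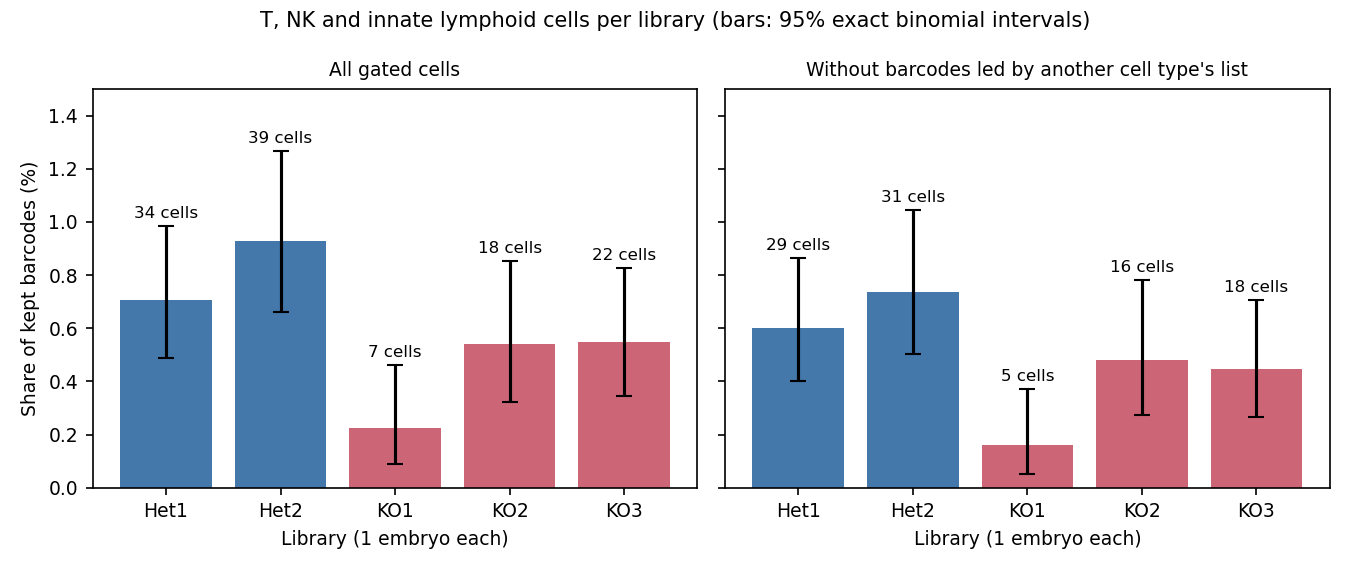
Bars give the share of kept barcodes (%) that were T, NK or innate lymphoid cells in each library, with 95% exact binomial intervals and the number of cells above; the right panel leaves out the 21 cells led by another cell type's list. Both Het libraries lie above all 3 KO-labelled libraries in both panels, with 7 cells in KO1 on the left.

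Barcodes with a Ptprc UMI made up 49.3% and 54.8% of kept barcodes against 33.4%, 52.2% and 50.2%, with overlapping groups. The other lymphocyte class, barcodes with Ptprc and Cd79a, fewer than 2 gate genes and none of the other exclusion genes, was 0.851% and 0.523% against 0.192%, 0.241% and 0.249%, and did not overlap either (exact permutation p = 0.1). Whether the 2 classes differ in the size of this difference was not tested.

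The gated cells were sorted by 3 lists of 8 genes into a T, an NK and an ILC2 range, each cell going to the list with the most genes detected, at least 2 and more than in the next list. A range is a cut on a per-cell score and not a cell type: in 31 of the 100 cells assigned the lead was 1 gene. There were 22 cells in the T range, 51 in the NK range, 27 in the ILC2 range and 20 left unassigned. Since the lists define the ranges, the genes on them are a description here.

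In the T range the delta chain of the T cell receptor stood out. Trdc, its constant region (ENSMUSG00000104876, GRCm38 chromosome 14, 54142851 to 54148868, plus strand), had 93 of its 94 UMIs in this range and was found in 15 of its 22 cells. Cd3e, the CD3 epsilon chain, had all 64 of its UMIs there, in 14 cells. Trac, the constant region of the alpha chain, had 8 UMIs in 7 of the 22 cells. Of the 16 cells with Trdc, 12 also had Cd163l1, a scavenger receptor of gamma-delta T cells that make interleukin-17, and neither gene was on the gate. Transcripts of the delta chain were thus found in more T-range cells than those of the alpha chain, and 6 of the 7 cells with Trac also had Trdc. The gamma chain region Tcrg-C1 had 54 UMIs in the range, and the transcription factor gene Ikzf2 had 227 of its 476.

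The receptor chains varied between embryos. Trdc had 45, 4, 0, 23 and 22 UMIs in the gated cells of Het1, Het2, KO1, KO2 and KO3, beside 9, 4, 0, 5 and 4 T-range cells. Cd163l1 had 40, 17, 0, 35 and 20 UMIs. KO1 held no T-range cell and no UMI of either gene. Of the genes tied to interleukin-17 production, Il17a had 11 UMIs and Il17f 19 over all cells, and 10 and 12 of these lay in unassigned cells. The thymocyte genes Rag1, Rag2 and Dntt had 0 UMIs in all 120 cells.

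The NK range was the largest, and Gzma, granzyme A (ENSMUSG00000023132, chromosome 13, 113093825 to 113100981, minus strand), was its most abundant list gene, with 5263 of the 5760 UMIs in the gate. Gzma was found in 46 of the 51 cells, against 3.11% of non-immune barcodes in Het1 and 0.199% to 1.11% in the other libraries. Ccl5, a chemokine stored in cytotoxic granules, had 3369 of 4121 UMIs in this range, and Gzmb 481 of 507. The receptors Ncr1 (NKp46), Klrb1c (NK1.1) and Klre1 had 55 of 55, 122 of 134 and 114 of 118 of their UMIs there. The killing genes Prf1 (perforin) and the NK factor Eomes were sparse, at 32 and 7 UMIs, all in the NK range.

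Cd3g, the CD3 gamma chain, did not follow Cd3e. It was found in 43 of the 51 NK-range cells with 290 UMIs, while Cd3e was found in 0 of the 51. By the same 3-count rule, that 0 allows up to 5.88% of cells with a UMI. Both genes are on the gate and on the T list, so the sorting bears on these counts. In the T range Cd3g had 154 UMIs. In non-immune barcodes a Cd3g UMI was found in 0 to 3 barcodes per library, at most 0.176%. The beta chain regions Trbc1 and Trbc2, near-identical copies whose reads may be split between them, had 170 and 270 UMIs in the NK range.

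The ILC2 range held 27 cells, of which 9 were led by another list. Il1rl1, the interleukin-33 receptor, was found in 13 of its cells with 64 of 65 UMIs, and Gata3 had 89 of its 116 UMIs there. Calca, which encodes the neuropeptide CGRP (ENSMUSG00000030669, chromosome 7, 114631478 to 114636357, minus strand), was not on the range's list and had 665 of its 691 UMIs in 12 cells of this range. Of the 14 cells with Il1rl1, 11 also had Calca. The epidermal growth factor family gene Areg had 107 of 159 UMIs in the range and the costimulatory gene Icos 109 of 196. The effector cytokines were nearly silent, with 6 UMIs of Il5 and 4 of Il13.

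Genes of group 3 and LTi cells were found in unassigned cells and in the ILC2 range. The unassigned cells held 24 of the 47 UMIs of Tnfsf11 (RANKL), 15 of the 20 of Lta and 13 of the 18 of Cxcr5. Il22 had 385 UMIs in only 5 cells, with up to 181 in a single cell. These were 1 cell each in Het2 and KO2 and 3 in KO3, of which 2 cells of KO3 were unassigned and the other 3 cells in the ILC2 range. The cell of KO2, with 70 Il22 UMIs, was led by dendritic genes, with 37 UMIs of H2-Aa and 73 of Cd74.

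**Figure D3:**
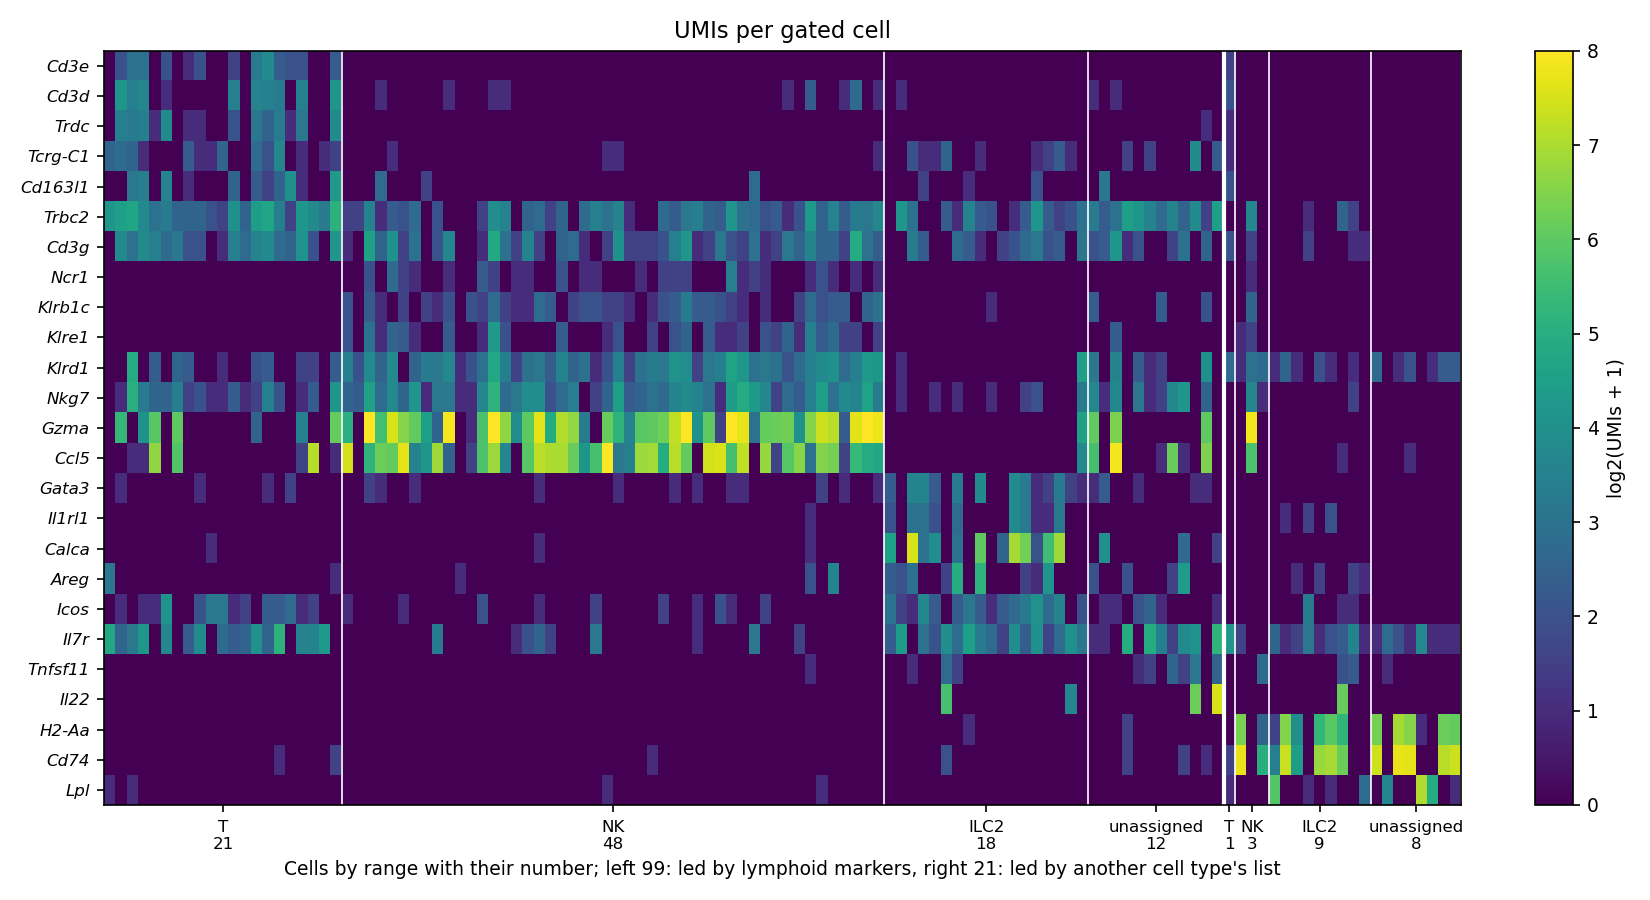
Each column is 1 of the 120 gated cells and each row 1 gene, coloured by log2(UMIs + 1); columns run by range (T, NK, ILC2, unassigned), first for the 99 cells with lymphoid lead and then for the 21 led by another list. Cd3e and Trdc lie mostly in the T block (14 and 15 of 22 cells), Gzma in the NK block (46 of 51), Il1rl1 and Calca in part of the ILC2 block (13 and 12 of 27), and H2-Aa and Cd74 mostly in the right-hand cells.

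The make-up of the gated cells by range did not separate the groups. The NK range was 47.1% and 46.2% of gated cells against 57.1%, 27.8% and 36.4%. The T range was 26.5% and 10.3% against 0%, 27.8% and 18.2%, and the ILC2 range 17.6% and 23.1% against 42.9%, 27.8% and 18.2%. All 3 overlapped between groups, with exact permutation p of 1.0 for T, 0.7 for NK and 0.4 for ILC2, and adjusted p of 1.0 over the 3 ranges. By the same 3-count rule, the 0 of 7 T-range cells in KO1 allows a share of up to 42.9%, a rough limit for so few cells.

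As a share of kept barcodes, NK-range cells were 0.332% and 0.428% against 0.128%, 0.150% and 0.199%. The groups did not overlap, and the exact permutation p was 0.1, or 0.3 after adjustment over the 3 ranges. The T range (0.187% and 0.0951% against 0%, 0.150% and 0.0997%) and the ILC2 range (0.124% and 0.214% against 0.0959%, 0.150% and 0.0997%) did overlap. Without the cells led by another list the mean ILC2 shares of gated cells differed by 0.174 percentage points, against 9.24 with them.

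Within a range, each library held fewer than 20 cells, so the genes are given as values with no test. Gzma stood at 15676 and 12248 unscaled CPM over the NK-range cells against 11338, 7408 and 12550. Those values overlapped between groups. Ccl5 stood at 8129 and 10930 against 11079, 8127 and 2866, with KO3 the lowest library. Calca in the ILC2 range was 3202 and 933 against 3986, 2059 and 2700 unscaled CPM, with the counts of KO1 and of KO3 in 1 cell each. These 3 genes overlapped between the groups in their ranges.

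Gene expression in the gated cells was compared on UMIs summed per library, in CPM scaled by the trimmed mean of M-values (called CPM from here). Of 4109 genes tested with edgeR's quasi-likelihood test, 0 passed an adjusted p of 0.05 (0%), and 229 had an unadjusted p under 0.05 (5.57%), of which 96 were higher (2.34%) and 133 lower (3.24%) in KO-labelled libraries. DESeq2 called 2, Lpl and H19. In 793 genes (19.3%) the groups did not overlap, 387 with higher values (9.42%) and 406 with lower values (9.88%) in KO-labelled libraries. Data were simulated for this comparison with the same spread for every gene. In them the test recovered 86.0% of genes changed by a log2 value of 2 and 12.7% of those changed by 1. Genes with most UMIs in a few cells were not simulated, so recovery of such genes is not known. Without KO1 the test still called 0 genes. A fit without Het1 rests on Het2 as the only Het library, which held 8 cells led by another list. The calls of that fit are therefore not given.

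H19, an imprinted long non-coding RNA of fetal tissue that hosts a microRNA (ENSMUSG00000000031, chromosome 7, 142575529 to 142578143, minus strand), led the genes with higher values in KO-labelled libraries. It had 4 and 2 UMIs against 8, 23 and 20, found in 4 and 2 cells against 5, 9 and 8. Its mean was 9.62 CPM ± 5.18 (SD, n = 2) against 110.4 ± 37.0 (SD, n = 3), a log2 fold change of 3.42 (standard error, SE, 0.55, edgeR adjusted p = 0.182). The groups did not overlap. Of the 57 UMIs, 28 lay in T-range cells and 5 in cells led by another list, and without these cells the log2 fold change was 3.33.

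H19 also stood higher in KO-labelled libraries outside the gate. Barcodes of red cells, which sample the free RNA of a library, held 0.0835 and 0.0679 H19 UMIs each against 0.534, 0.147 and 0.213, at median depths of 2328 to 2621.5 UMIs. Per gated cell, at the higher depths given above, the values were 0.118 and 0.0513 against 1.14, 1.28 and 0.909. In both kinds of barcode the groups did not overlap. Among non-immune barcodes, 48.0% and 54.5% had an H19 UMI against 84.6%, 75.8% and 79.2%. The part of free RNA in the H19 counts of the gated cells was not tested.

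The other 7 genes with the smallest p among those with higher values were Nrgn, Rab27b, Plac8, Hs3st1, Icam1, Marcksl1 and Commd1, with log2 fold changes from 0.97 (Icam1) to 2.70 (Rab27b) and edgeR adjusted p of 0.596 to 0.702. Rab27b, a GTPase of granule release, had 2 and 5 UMIs against 8, 16 and 11, of which 30 of 42 lay in the ILC2 range. Hs3st1, a heparan sulfate sulfotransferase, had 10 and 11 against 11, 13 and 20 UMIs, 62 of 65 in the ILC2 range. For Marcksl1, 38 of 65 UMIs lay in cells led by another list, and it fell below the filter on low counts without them. Both Rab27b and Hs3st1 stood higher in CPM in all 3 KO-labelled libraries, but each was found in 1 to 4 cells per library. Icam1, an adhesion ligand, had 26 and 27 against 15, 22 and 43 UMIs, or 83.4 CPM ± 4.20 (SD, n = 2) against 168.4 ± 31.9 (SD, n = 3). Of its 133 UMIs, 58 lay in cells led by another list, and without these its log2 fold change was 1.00.

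Plac8, expressed in many leukocytes, had 40 and 43 UMIs against 14, 71 and 86. Its level was 132.9 and 128.1 CPM against 190.2, 457.5 and 319.3 CPM, with no overlap and a log2 fold change of 1.35 (SE 0.33, edgeR adjusted p = 0.596). Of its 254 UMIs, 138 lay in the cells led by another list, and without these the log2 fold change was 1.29.

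**Figure D4:**
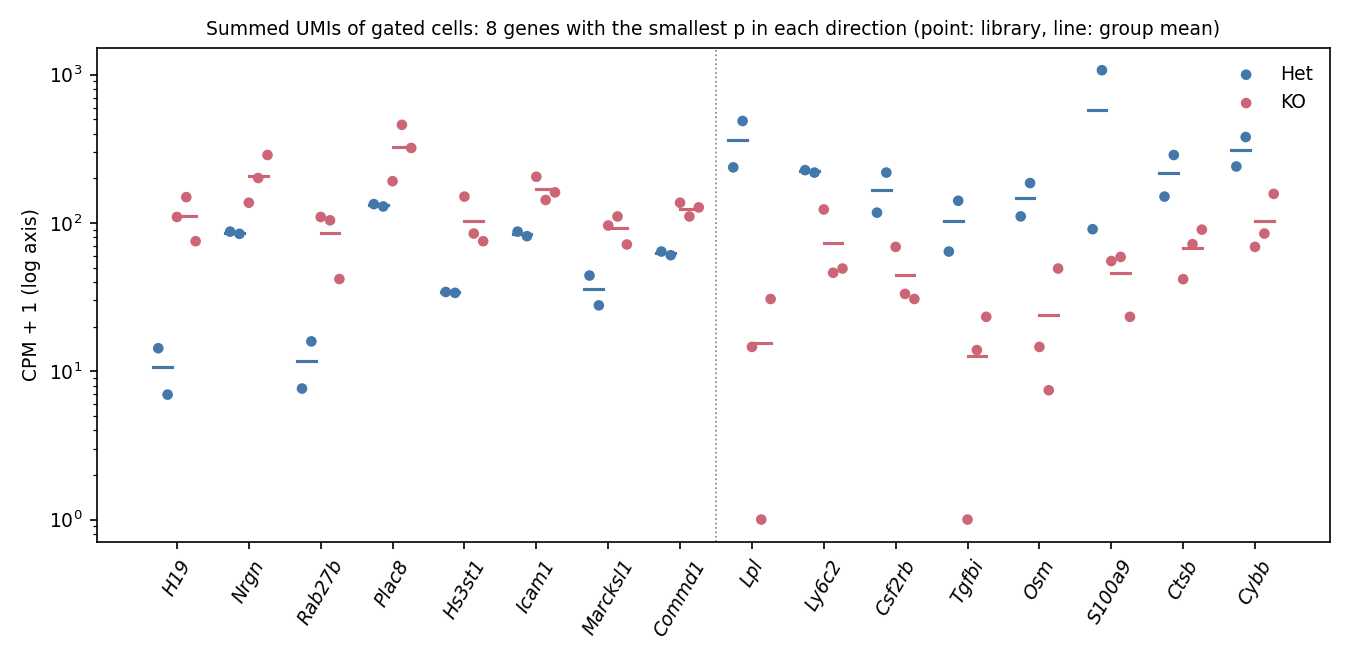
Each point is 1 library's level in the summed gated cells (CPM + 1, log axis), with a line at the group mean, for the 8 genes with the smallest p among those higher (left of the dotted line) and lower (right) in KO-labelled libraries. Lpl, S100a9 and H19 show wide gaps between group means, and S100a9 in Het2 stands apart from Het1.

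Lipoprotein lipase, Lpl, led the genes with lower values. It had 71 and 163 UMIs against 1, 0 and 8, a log2 fold change of -4.32 (SE 0.58, edgeR adjusted p = 0.0713). Of its 243 UMIs, 239 lay in cells led by another list and 4 in the cells with lymphoid lead. Most of the other genes with lower values were distributed likewise. The share of UMIs in cells led by another list was 122 of 126 for Csf2rb, 70 of 74 for Tgfbi, 103 of 110 for Osm, 359 of 405 for S100a9, 122 of 179 for Ctsb and 253 of 259 for Cybb, which are genes of macrophages, monocytes or neutrophils. S100a9 had 343 of its UMIs in a single cell of Het2. Without those cells all but Ctsb fell below the filter on low counts, and the log2 fold change of Ctsb went from -1.56 to -0.43.

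The macrophage and monocyte list as a whole summed to 928 and 2592 unscaled CPM against 521, 966 and 651, with a UMI of all 12 genes. Without the cells led by another list it stood at 351 and 312 against 217, 134 and 113, higher in both Het libraries. That order came with Ly6c2, which is on the list: the 11 other genes stood at 134 and 75.7 against 54.3, 95.7 and 73.5, with overlapping groups. The neutrophil list stood at 180 and 129 against 72.4, 89.4 and 53.9. The dendritic list, with Clec9a at 0 throughout, stood at 125 and 116 against 0, 147 and 73.5. The part of these lists in the results for lymphoid genes was not tested.

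Ly6c2, a surface protein of monocytes and some NK and T cells, was the exception among the genes with lower values. It had 68 and 73 UMIs against 9, 7 and 13, of which 109 of 170 lay in the NK range and 42 in cells led by another list. Its level was 221.7 CPM ± 5.97 (SD, n = 2) against 71.9 ± 43.7 (SD, n = 3), a log2 fold change of -1.85 (SE 0.36, edgeR adjusted p = 0.512), and -1.94 without the cells led by another list. Klra5, a lectin-like receptor gene of NK cells chosen after its values were seen, had 36 and 44 UMIs against 7, 3 and 6, a log2 fold change of -1.87 (SE 0.50, edgeR adjusted p = 0.624). It belongs to the Ly49 family of close copies, between which reads may be split. Without the cells led by another list and without KO1, these were the only 2 genes that passed an adjusted p of 0.05. Both had values in KO1 between those of the Het and of the other KO-labelled libraries.

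Lists of genes were then read within the same fit, with 0 members of any list past the adjusted threshold. The median log2 fold change over all 4109 genes tested was 0.01, and also 0.01 over the 3117 tested without the cells led by another list. The NK and cytotoxic list had 14 of its 20 members tested and a median of -0.34 (-0.45 without the cells led by another list). The list had 13 estimates below 0, against 2015 among all 4109 genes tested. Its 2 members with an unadjusted p under 0.05 were Klrk1 (NKG2D), at 51 and 74 UMIs against 2, 15 and 39, and the chemokine gene Xcl1, at 24 and 31 against 4, 7 and 13. Their log2 fold changes were -0.90 and -0.83. Gzma, the most abundant member, stood at 6222 and 5121 CPM against 7743, 1560 and 5034, and Ccl5 at 3445 and 5010 against 7566, 2133 and 1908, both with overlapping groups. Nkg7 and Tyrobp, next in level, had log2 fold changes of -0.07 and -0.46. The share of NK-range cells among the gated cells also varied between libraries, and its part in these values was not tested.

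The T cell receptor list had 14 of 22 members tested with a median of -0.21 (-0.39 without the cells led by another list), 0 at an unadjusted p under 0.05, and estimates from -0.77 (Zap70) to 0.74 (Cd3e). Its most abundant members, Trbc2, Trbc1 and Cd3g, had log2 fold changes of 0.21, -0.07 and -0.26. The list of gamma-delta T cells that make interleukin-17 had 4 of 15 members tested, with a median of 0.20. The median turned to -0.07, over 3 members, without the cells led by another list. Among them Cd163l1 stood at 91.8 CPM ± 58.2 (SD, n = 2) against 99.9 ± 115 (SD, n = 3) and Maf at a log2 fold change of 0.12, or -0.17 without those cells.

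The ILC2 list had 13 of 22 members tested, a median of 0.09 (-0.07 without the cells led by another list) and 0 at an unadjusted p under 0.05. Calca, its most abundant member, stood at 754.1 and 277.0 CPM against 1644, 812.0 and 460.4 CPM, with overlapping groups and a log2 fold change of 0.87 (SE 0.52, edgeR adjusted p = 0.930). Rora, a nuclear receptor needed for ILC2, had a log2 fold change of -0.10. The group 3 and LTi list had 4 of 10 members tested and a median of 1.45. Without the cells led by another list, which held 14 of the 47 Tnfsf11 and 70 of the 385 Il22 UMIs, 2 were tested and the median was 1.07. Il22 and Tnfsf11 had unadjusted p of 0.0379 and 0.0230, but KO1 had 0 UMIs of both, and the groups overlapped. Ltb (lymphotoxin beta), the most abundant member, had a log2 fold change of 0.47, or 0.04 without those cells.

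Among lists on upkeep and growth, the lineage factors (10 tested, median 0.09, or -0.08 without the cells led by another list) included Ikzf2 at 0.10 and Ets1 at -0.13. The common gamma chain receptors and their signalling genes (11 tested, median 0.24, or 0.12 over 10 without those cells) included Il7r at 0.26 and Il2rb at -0.45, both gate genes, and Socs3 with an unadjusted p of 0.0398, of which 92 of 144 UMIs lay in the cells left out and whose log2 fold change went from -0.84 to -0.24 without them. The chemokine and homing receptors (10 tested) had a median of -0.03 and 0 members at an unadjusted p under 0.05, with the integrins Itga4 at 0.20 and Itgb7 at -0.04. Its median was -0.64 over 9 members without those cells, with Itga4 at -0.15 and Itgb7 at -0.56. The cell cycle list (19 tested) had a median of 0.31 (also 0.31 over 17 without those cells) and 0 members at an unadjusted p under 0.05. It had 13 estimates above 0, against 2094 among all 4109 genes tested, with Hmgb2 at 0.54 and Stmn1 at 0.33.

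Genes tied to microRNA decay were read as well, since that is the process in which Zswim8 acts. Cell-cycle targets of the miR-16 seed family (6 of 11 tested) had a median of 0.01, or -0.14 over 5 without the cells led by another list. Ccnd1 (cyclin D1) had 20 and 23 UMIs against 2, 0 and 7, of which 48 of 52 lay in cells led by another list. Ccnd2 and Ccnd3, the D cyclins with most UMIs in lymphoid cells, had log2 fold changes of -0.06 and 0.08. Decay triggers and microRNA hosts (5 of 13 tested) had a median of 0.35, or 0.24 without those cells. Among them Lrrc58 had 19 and 27 against 1, 4 and 12 UMIs, a log2 fold change of -1.11 with an unadjusted p of 0.0289, and -0.27 without the cells led by another list. Oip5os1 (Cyrano) stood at -0.57 and Bcl2l11 at 0.49.

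The interferon-stimulated genes were low, with 14 of 17 in the files having a UMI and 4 tested, and a median of -0.54, or -0.26 over 3 without the cells led by another list. The most abundant, Bst2 (tetherin), stood at -0.66, and at 0.23 without those cells. The immediate early genes, which respond to dissociation, had 15 members tested and a median of -0.20, with Junb, the most abundant, at -0.23. That median turned to 0.11, over 13 members, without the cells led by another list, with Junb at -0.36. Of these, Jund (log2 fold change 0.59), Zfp36 (-1.36) and Ier3 (-1.28) had an unadjusted p under 0.05. For Ier3, 190 of 204 UMIs lay in cells led by another list, and for Zfp36 270 of 360. Zfp36 stood at -0.68 and Jund at 0.33 without those cells, and Ier3 fell below the filter.

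**Figure D5:**
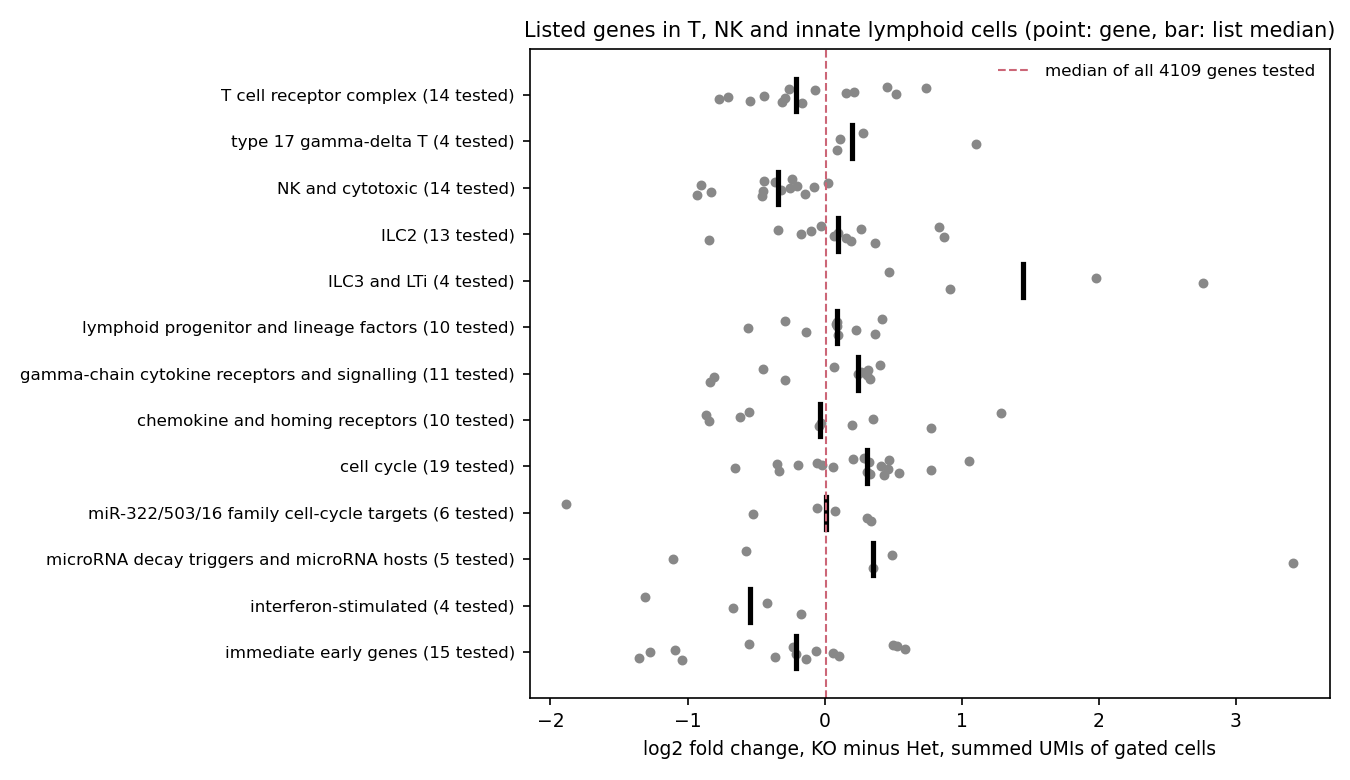
Each point is the log2 fold change of 1 tested gene (x axis, KO-labelled minus Het), by list, with a bar at the list median and a dashed line at the median of all 4109 genes. The NK and cytotoxic list lies mostly left of the line with a median of -0.34, and the 4 group 3 and LTi genes lie right of it with a median of 1.45.

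The last comparison asked whether the genotype difference in the gated cells differed from that in the 9357 other barcodes with a Ptprc UMI, with the library as a block. In data simulated likewise, with the same spread for every gene, this test recovered 48.3% of genes whose changes differed by a log2 value of 2. It recovered 2.1% of those that differed by 1. Of 8205 genes, 2 passed an edgeR adjusted p of 0.05 (0.0244%), and 357 had an unadjusted p under 0.05 (4.35%). Those 2 were Il7r, a gate gene, whose call is set aside because the gate moves such counts out of the other barcodes, and Plac8. On the scaling of this fit, Plac8 in the gated cells stood at 126.0 and 123.7 CPM against 173.8, 444.3 and 312.6. Outside the gate it stood at 632.7 and 534.6 CPM against 285.1, 448.2 and 375.6. The difference between the 2 changes was 1.95 on the log2 scale (SE 0.29, edgeR adjusted p = 0.0336), and 1.90 without the cells led by another list. It did not pass without any 1 of the 5 libraries, with adjusted p from 0.0601 to 0.233.

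The other genes with the smallest p in this comparison did not pass with all gated cells. Without the cells led by another list, Hilpda (1.94, edgeR adjusted p = 0.00133) and Ttn (7.47, edgeR adjusted p = 0.00466) did. With all gated cells, those with a more positive difference were Ttn, Hilpda and Nrgn, with log2 differences of 7.57, 1.83 and 1.38, and Nrgn was at 0.87 without the cells led by another list. Of the 20 UMIs of Ttn, 19 lay in 3 cells of KO3. Hilpda stood at 144.9 and 322.2 CPM against 297.9, 513.1 and 265.4 in all gated cells, with overlapping groups. Outside the gate Hilpda stood at 168.3 and 165.6 CPM against 91.6, 63.4 and 71.3. Genes with a more negative difference were Lpl (-3.50, edgeR adjusted p = 0.0631), Cd28 (-2.74), Csf2rb (-1.90) and Crim1 (-4.46). Cd28, a costimulatory receptor with 59 of its 92 UMIs in the NK range, stood at 100.8 and 86.3 CPM against 74.5, 31.3 and 69.1 CPM. Outside the gate Cd28 went the other way, at 1.27 and 0.61 CPM against 5.12, 2.60 and 3.73. Its log2 difference of -2.74 thus combines a lower level inside the gate with a higher level outside it.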

How the data were processed

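The authors deposited raw UMI counts in sparse 10x matrices (3′ chemistry, 1 per embryo); the submitters' processing notes name Cell Ranger 4.0.0 and mm10. The members and lists were chosen with earlier results of these data known. Gene coordinates are from GENCODE M21. Counts were summed per library over gated cells and fitted with edgeR 4.0.16 (quasi-likelihood, TMM, filterByExpr, Benjamini-Hochberg, two-sided). The edgeR p-values set each difference between groups against the spread between these embryos. Shares were compared by exact permutation of libraries. For doublets, 2 artificial ones were simulated per barcode and those nearest to them were marked, at 0.8% per 1000 barcodes; this marked 1 gated cell, which stayed in. Red-cell barcodes had over 50% haemoglobin UMIs and under 500 genes. The named genes are the 8 with the smallest p in each direction (4 for the interaction) and a mean of at least 20 CPM. Genes of chromosome Y, Xist, Tsix and the haemoglobin, mitochondrial and gate genes were left out of these. Other genes of the X chromosome were not left out. The most abundant list members were named too. Other list members were named after their values were seen. The fits were tested on simulated data (200 changed genes). DESeq2 1.42.0, other filters, scalings and gates, a replicate block, sex, and each library left out were alternatives; leaving out cells led by another list, or by erythroid UMIs, was chosen after seeing the data.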

Additional observations from a re-analysis of the deposited data

Results flagged for a closer look

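Plac8 was picked out because its genotype difference in T, NK and innate lymphoid cells differed from that in the other barcodes with a Ptprc UMI, by 1.95 on the log2 scale (edgeR interaction, adjusted p = 0.0336). Its level was higher in the gated cells of all 3 KO-labelled libraries than of both Het libraries, and lower outside the gate. In the gated cells alone its edgeR adjusted p was 0.596. The interaction did not pass without KO1, KO2 or KO3, with edgeR adjusted p from 0.0929 to 0.233. Of the 254 Plac8 UMIs in the gate, 138 lay in cells led by another cell type's list.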

How the results depend on the processing

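The difference in the share of gated cells among kept barcodes kept its direction under every alternative run, from -0.629 (of barcodes with a Ptprc UMI) to -0.210 percentage points (without the cells led by another list or by erythroid UMIs), and from -0.490 to -0.268 without each library. For the share of the ranges among gated cells, the difference without each library ran from -11.2 to 5.06 percentage points for T and from -14.5 to 0.147 for NK; it reversed for T without Het1 (5.06) and without KO1 (4.62) and for NK without KO2 (0.147). The count of called genes in gated cells was 0, and it was 2 with DESeq2, 97 with no filter on low counts (13 higher, 84 lower), 1 with a replicate block (Xist), and 2 without the cells led by another list and KO1. Without each library it ran from 0 to 56. For the interaction, called for 2 genes, all kept barcodes outside the gate gave 4, no filter 48, and leaving out the cells led by another list 6 (Il7r, Hilpda, Ttn, Plac8, Il22 and Cxcl2). Without each library it ran from 0 (without Het2, KO1 or KO2) to 27 (without Het1). Correlations of same-numbered libraries, as deviations from their group means, were 0.0133 and 0.0104, so no pairing by number was seen. With 2 Het libraries, whose deviations mirror each other, and few cells, they cannot exclude one. Fits of single ranges were not run, since no range held 20 cells in each library. The 7 cells of KO1 limit every comparison.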
